A study of Mus musculus with 30 samples.

Results

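Respiratory complex I, the NADH:ubiquinone oxidoreductase, is the first enzyme of the mitochondrial electron transport chain. It takes electrons from NADH in its matrix arm, passes them along iron-sulphur clusters to ubiquinone and pumps protons through its membrane arm. Most of its subunits are encoded in the nucleus under Nduf names, and a few are encoded by the mitochondrial genome. Transcripts of the nuclear subunits were examined in single mouse muscle fibres in which MCU, which forms the channel of the calcium uniporter of mitochondria, had been raised or silenced. Genes were taken when the gene name that the files give a probe was Nduf with the letter a, b, c, s or v and a digit, or Ndufab1, with assembly factors left out. This rule gave 38 genes and 48 probes, among 23341 genes tested and 55681 probes. Of the 38, 36 encode subunits, 7 of them in the catalytic core, 9 accessory in the matrix arm and 19 accessory in the membrane arm, with Ndufab1, the mitochondrial acyl carrier protein, beside them. Ndufa4, now counted with cytochrome c oxidase, and its paralogue Ndufa4l2 carry the name only.

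Male CD1 mice, 8 weeks old at injection, gave the 30 fibres, all from a fast muscle of the hind limb, the extensor digitorum longus, and each fibre was read on its own 1-colour Agilent array. Groups were fibres with an adeno-associated virus (AAV) that carries MCU (3 fibres at day 7 and 4 at day 14) and wild type fibres without virus (4 at each day). The other groups were fibres with an AAV that silences MCU (3 at day 7 and 4 at day 14) and transfected controls (4 at each day). Sample names give the control virus as AAVshLuc, while other labels say that it had no insert, and the sources used here do not settle which applies. Injected fibres had been picked for the ZsGreen marker and for their MCU level in quantitative PCR. The labels do not name the animal of a fibre, so fibres may share an animal and p-values reflect only fibre-to-fibre spread. The promoter and serotype of the viruses are not given in the sources used here.

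Mcu itself, which had served to choose the fibres, averaged 3.27 ± 0.28 with the MCU vector (SD, n = 3) and 2.67 ± 0.20 in wild type fibres (n = 4) at day 7. At day 14 it averaged 6.36 ± 0.35 with the MCU vector and 2.46 ± 0.27 in wild type fibres (n = 4 each). In silenced fibres Mcu averaged 0.49 ± 0.97 (n = 3), against 2.57 ± 0.34 in transfected controls (n = 4), at day 7. At day 14 the values were -0.52 ± 1.10 in silenced fibres and 2.55 ± 0.22 in controls (n = 4 each). Every level is a log2 signal from which the 75th percentile of the probes of that array was subtracted, so they give a share of a fibre's amplified RNA and not an amount per fibre. The difference with the MCU vector at day 7 did not pass (0.60 ± 0.41, SE here and for every difference, limma adjusted p = 0.999), while the other 3 contrasts of Mcu did (limma adjusted p at most 0.00163). The 75th percentile of signal ranged from 83.2 to 138 between arrays, 49.4% to 59.5% of probes were well above background, and the number of arrays limits the precision. Of 10 fast fibre markers, 9 were detected on all arrays and Myh2 on 2, in silenced fibres of day 14 only. The 2 satellite cell markers were near background, with Myf5 detected on 0 arrays and Pax7 on 1. On each slide treated fibres occupied other array columns than their controls, so treatment and column cannot be told apart.

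The probes of 5 genes are shown in lower case, each a 60-base stretch that reads as an open frame, because they are what the array measured. The probes of Ndufb8 and Ndufb6, membrane arm subunits, cross an intron. Ndufs8 carries iron-sulphur clusters near the quinone site, Ndufa6 is the subunit that binds an acyl carrier protein at the matrix arm, and the Ndufv3 sequence is the second probe of that gene. The positions come from the deposited files and refer to mm9.
Ndufs8, chr19:3911177-3911236, minus strand: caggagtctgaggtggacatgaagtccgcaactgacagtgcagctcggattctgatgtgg
Ndufa6, chr15:82181444-82181503, minus strand: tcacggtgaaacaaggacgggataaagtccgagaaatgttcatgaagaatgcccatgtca
Ndufb8, chr19:44624855-44627199, minus strand: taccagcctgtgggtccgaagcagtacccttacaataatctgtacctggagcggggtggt
Ndufb6, chr4:40219858-40224715, minus strand: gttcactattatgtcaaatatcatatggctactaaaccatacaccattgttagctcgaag
Ndufv3, chr17:31665148-31665207, plus strand: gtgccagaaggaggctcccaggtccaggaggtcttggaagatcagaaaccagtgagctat

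The used probe was well above background on all 30 arrays for 37 of the 38 genes and on 24 arrays for Ndufa4l2, and no probe of a member was saturated. All 38 passed the filter on low values. The median within-group SD was 0.19 for the members, with a range of 0.12 to 0.54, and 0.31 for all genes. All genes include dim ones, and the 2 values were not matched for signal level. The median over the 38 members was taken in each fibre as a summary. With the MCU vector it was 5.36, 5.49 and 5.83 at day 7, against 5.89, 5.47, 5.38 and 5.91 in wild type fibres. At day 14 it was 5.62, 5.43, 5.75 and 5.83 with the MCU vector, against 5.89, 5.63, 5.99 and 5.90 in wild type fibres. The groups of this experiment overlapped on both days. In silenced fibres the median was 6.09, 5.98 and 6.26 at day 7, against 5.61, 5.66, 5.59 and 5.79 in transfected controls. Every silenced fibre of day 7 lay above every control fibre of that day. At day 14 the median was 6.17, 5.78, 6.08 and 5.73 in silenced fibres, against 5.65, 5.92, 5.97 and 5.93 in controls. These groups overlapped, with 2 silenced fibres above all 4 controls and the others within their range.

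**Figure D1:**
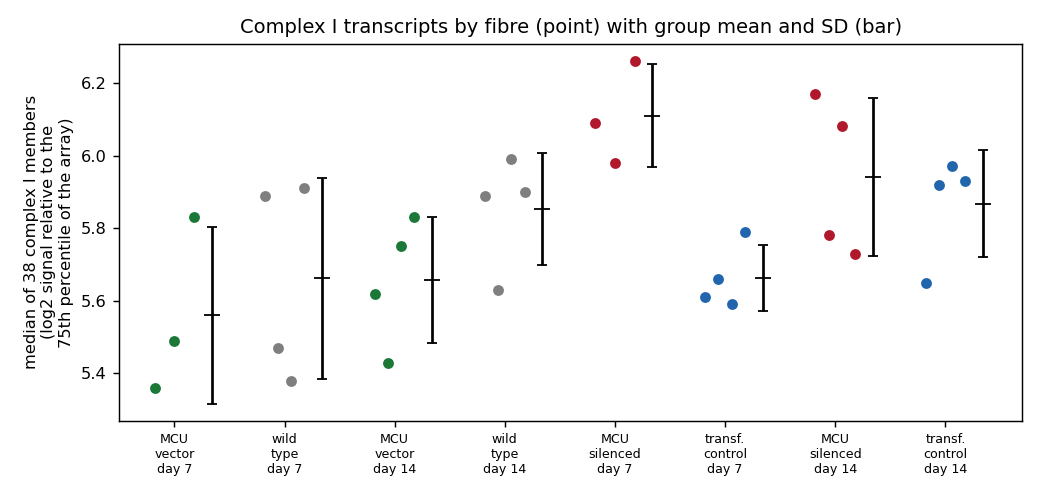
Median log2 signal of the 38 complex I members in each of the 30 fibres (points), with the mean and SD of each group (bars); 0 on the axis is the 75th percentile of the array. Silenced fibres of day 7 averaged 6.11 ± 0.14, against 5.66 ± 0.09 in their controls, and the other pairs of groups overlap.

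The first question was what silencing of MCU goes with. At day 7, 14 of the 38 members rose in silenced fibres and 0 fell, by limma at an adjusted p under 0.05. Over all genes tested, 8.28% rose and 5.17% fell in this contrast. The difference was above 0 for 38 of 38 members, against 57.2% of all genes, and its median was 0.45, against 0.08 over all genes. The 75th percentile that was subtracted also differed: the signal at it was 104, 83.2 and 87.7 on silenced arrays, all below the 123, 112, 128 and 108 of the controls, and its part in the result was not tested. All 38 members were above 0 under each of the other scalings and background corrections as well. Of the 38 members, 30 had no overlap between silenced and control fibres, all of them higher when silenced, where 13.6% of all genes did so and 8.20% lay apart on the lower side. Another scaling moved the number of calls but not the direction: 3 members passed when arrays were scaled by their median, which lowered the median of all genes to -0.05, 9 after quantile normalization, and 22 when the 75th percentile was taken over probes detected on all arrays. With only these 7 arrays in the fit, 0 passed at an adjusted p under 0.05. Without silenced replicate 3 or without control replicate 3, 8 members passed, and 8 of the 14 calls held in each of the 7 fits that left out 1 fibre. Of the others, Ndufv3 and Ndufb6 were lost in 2 of these fits, Ndufs7 in 3, Ndufs8 and Ndufa13 in 4 and Ndufb3 in all 7.

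In the catalytic core, which carries the flavin and the iron-sulphur clusters, 2 of 7 subunits rose at day 7. Ndufs8 was 4.07, 3.90 and 4.83 in silenced fibres, against 3.30, 3.38, 3.05 and 3.91 in controls. The lowest silenced fibre lay just under the highest control. The log2 difference was 0.85 ± 0.26 (SE), 1.81-fold, with a limma adjusted p of 0.0297, and the call was lost without silenced replicate 3 and without control replicate 1, 2 or 3. Ndufs7, which holds the last cluster before ubiquinone, was 7.40, 7.35 and 7.59 in silenced fibres, against 6.70, 6.95, 6.74 and 7.18 in controls. The groups did not overlap, and the difference was 0.55 ± 0.15 (limma adjusted p = 0.0189). Ndufs3, at the base of the matrix arm, differed by 0.45 ± 0.16 and Ndufv2, in the NADH module, by 0.39 ± 0.17, and neither passed (limma adjusted p = 0.0671 and 0.13).

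Among accessory subunits of the matrix arm, 5 of 9 rose at day 7: Ndufa7, Ndufa2, Ndufa5, Ndufa12 and Ndufv3. Ndufa7, which had the smallest p of all members, was 5.79, 5.63 and 5.59 in silenced fibres, against 4.85, 5.18, 5.02 and 4.92 in controls. All silenced fibres were higher, and the difference was 0.68 ± 0.12, 1.60-fold (limma adjusted p = 6.8e-04). Ndufa5 was 7.49, 7.60 and 7.58 in silenced fibres, against 6.84, 7.09, 6.94 and 7.25 in controls, again without overlap (0.53 ± 0.12, limma adjusted p = 0.00626). Ndufa2, a subunit with a thioredoxin-like fold, was 7.25, 7.24 and 7.21 in silenced fibres and 6.65, 6.60, 6.75 and 6.71 in controls. Its silenced fibres lay close together above all controls (0.56 ± 0.13, limma adjusted p = 0.00601). Ndufa12, a subunit added late in assembly, differed by 0.48 ± 0.13 (limma adjusted p = 0.0135) and Ndufv3 by 0.44 ± 0.12 (0.019). Ndufs4, a subunit whose loss in humans causes Leigh syndrome, differed by 0.29 ± 0.16 and did not pass (limma adjusted p = 0.251).

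In the membrane arm, Ndufb2, Ndufb5, Ndufb8, Ndufb6, Ndufa13 and Ndufb3 rose at day 7, 6 of the 19 accessory subunits among the members. Ndufb2 was 6.43, 6.43 and 6.49 in silenced fibres, against 5.86, 5.89, 5.88 and 5.88 in controls. Each group was tight and the groups lay apart, with a difference of 0.57 ± 0.11, 1.49-fold (limma adjusted p = 0.00155). Ndufb5 was 6.08, 5.90 and 6.09 in silenced fibres and 5.33, 5.36, 5.36 and 5.45 in controls (0.65 ± 0.14, limma adjusted p = 0.00356). Ndufb8, a subunit often used as a protein marker of assembled complex I, was 7.45, 7.47 and 7.59 in silenced fibres and 6.81, 6.94, 6.70 and 7.10 in controls. It differed by 0.61 ± 0.15 (limma adjusted p = 0.00925), and in all 3 genes the groups did not overlap. The other calls of this arm were Ndufb6 (0.51 ± 0.15, limma adjusted p = 0.0232), Ndufa13 (0.43 ± 0.13, 0.0276) and Ndufb3 (0.47 ± 0.16, 0.0458). Ndufa7, Ndufb2 and Ndufb5 were the 3 members that also passed under scaling by the median. Ndufs5 had the smallest difference of all members (0.14 ± 0.13, limma adjusted p = 0.472). Ndufab1 differed by 0.44 ± 0.22 and did not pass (limma adjusted p = 0.19).

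Both genes that are named Nduf but are no complex I subunits lay above 0 as well. Ndufa4 rose by 0.62 ± 0.15 at day 7 (limma adjusted p = 0.00885), with 5.98, 5.66 and 5.95 in silenced fibres and 5.11, 5.20, 5.28 and 5.40 in controls. Ndufa4l2, a gene induced by hypoxia, differed by 0.85 ± 0.40, which did not pass (limma adjusted p = 0.155).

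**Figure D2:**
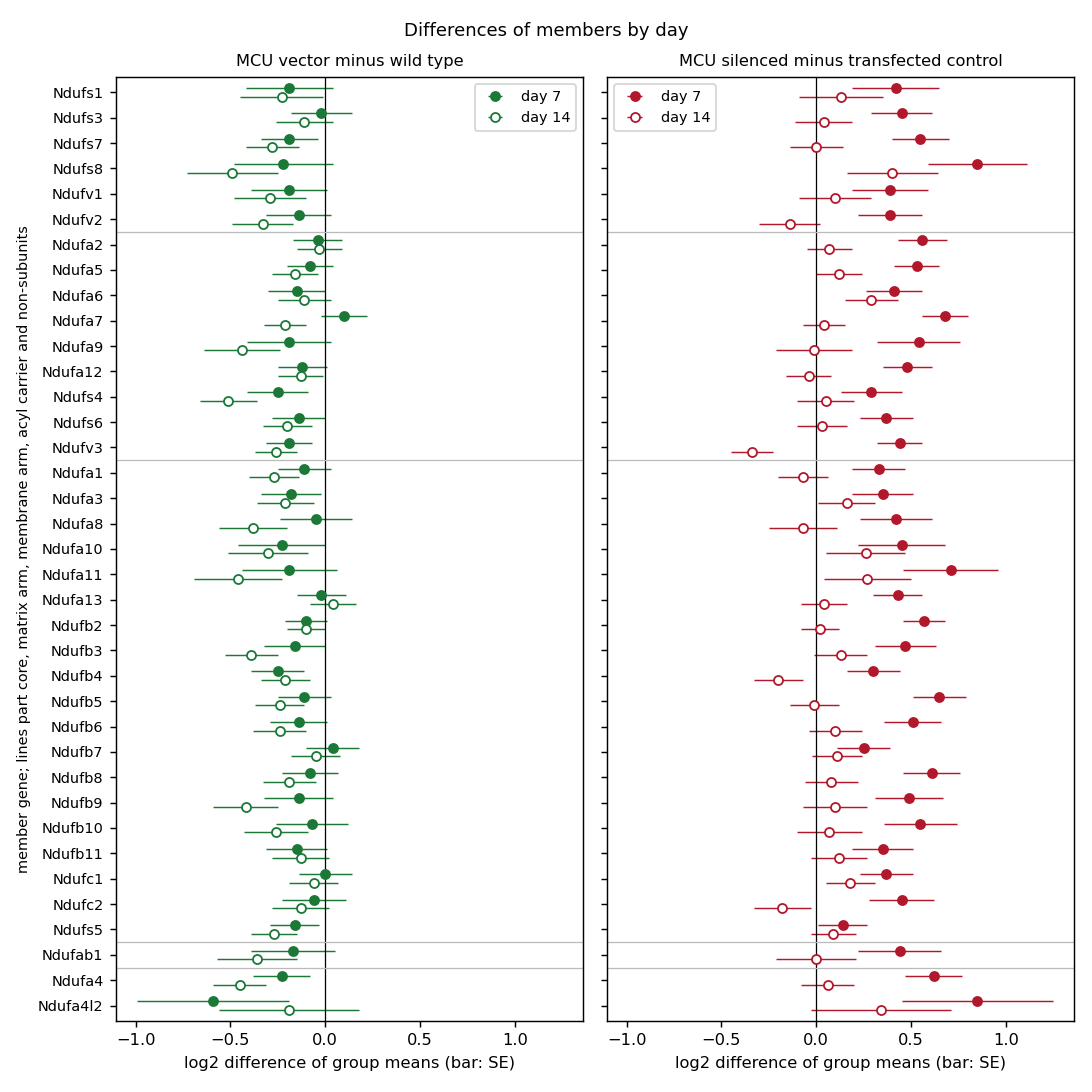
Log2 differences of group means with SE for the members by role, at day 7 (filled) and day 14 (open), for the MCU vector minus wild type (left) and silenced minus transfected control (right). At day 7 every silencing difference shown lies above 0, and at day 14 they lie from -0.34 to 0.40.

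At day 14, 0 members passed in silenced fibres by limma, where 1.54% of all genes rose and 1.92% fell. At an unadjusted p under 0.05 there was 1 member on each side. The median difference was 0.07, against -0.01 over all genes, and 29 of 38 members were above 0. Under scaling by the median 28 of 38 were below 0. Ndufa6 was 6.26, 6.04, 6.21 and 6.08 in silenced fibres, against 5.77, 5.97, 5.91 and 5.78 in controls. It was the one member without overlap and higher in silenced fibres on both days, and its day 14 difference of 0.29 ± 0.14 did not pass (limma adjusted p = 0.263). Ndufv3 was 6.27, 6.04, 6.08 and 6.04 in silenced fibres, against 6.34, 6.52, 6.47 and 6.47 in controls, so that all silenced fibres were lower. Its difference of -0.34 ± 0.11 had a limma adjusted p of 0.0979. At day 14, 1 of the 38 members thus lay apart on the higher side and 1 on the lower, where 4.28% and 4.81% of all genes did so. The share of all genes that lay apart in the same direction on both days was not computed.

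The change of the silencing effect between days was tested directly, as day 14 minus day 7. The difference was below 0 for 38 of 38 members, with a median of -0.43, against -0.08 over all genes, with 6 of 38 above 0 after quantile normalization and 2 after normexp. By limma 4 members passed, all lower at day 14, where 2.75% of all genes did so and 1.38% were higher. Ndufv3 changed by -0.78 ± 0.17 (adjusted p = 0.00753), Ndufa7 by -0.64 ± 0.16 (0.0246), Ndufb2 by -0.55 ± 0.15 (0.0385) and Ndufb5 by -0.66 ± 0.19 (0.0488). Of these, the call of Ndufv3 held in every one of the 15 fits that left out 1 fibre, but it was lost with the mean of its probes, and its second probe had the opposite sign (0.57 ± 0.34, limma adjusted p over probes = 0.372). Over the members, 1 call was left without control day 7 replicate 1, control day 14 replicate 2 or silenced day 7 replicate 1. Ndufb2 was lost in 12 of these fits, Ndufb5 in 13 and Ndufa7 in 3. Levels show both sides of this change. Ndufa7 averaged 5.67 ± 0.11 in silenced fibres (n = 3) and 4.99 ± 0.14 in controls (n = 4) at day 7, and 5.45 ± 0.13 in silenced fibres and 5.41 ± 0.10 in controls at day 14 (n = 4 each). Within controls alone Ndufa7 was higher at day 14 than at day 7 by 0.42 ± 0.11 (limma adjusted p = 0.0359), where 2.04% of all genes were higher and 1.23% lower; the call was lost in 6 of 8 fits that left out 1 fibre. Days lay on different slides, so day and slide cannot be told apart in that value.

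**Figure D3:**
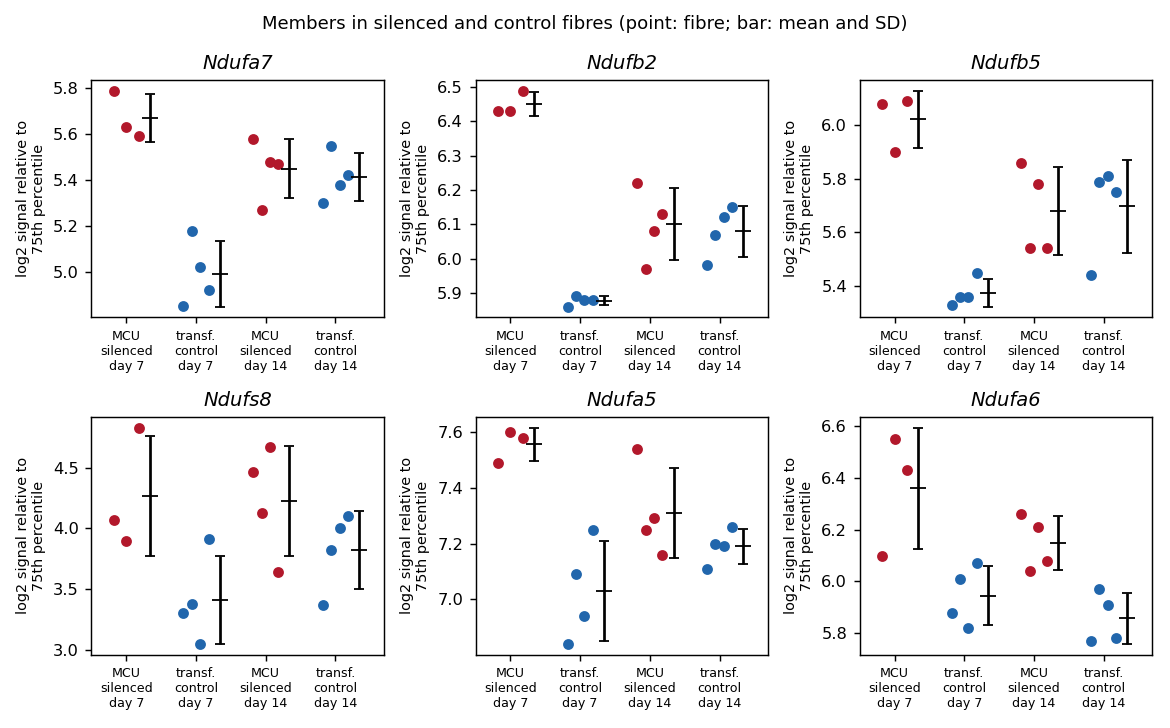
Log2 signal above the 75th percentile of the array for 6 members in silenced and transfected control fibres at both days (points are fibres, bars mean and SD). At day 7 the groups part for Ndufa7, Ndufb2, Ndufb5, Ndufa5 and Ndufa6, while for Ndufs8 the lowest silenced fibre (3.90) lies beside the highest control (3.91).

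Taken over both days, 11 members rose in silenced fibres and 0 fell, where 8.00% of all genes rose and 6.11% fell. The median was 0.27, against 0.04 over all genes, with 38 of 38 above 0; under scaling by the median 3 were below 0, and 2 after normexp background correction. Ndufs8 had the highest difference, 0.63 ± 0.18 (limma adjusted p = 0.0191). Ndufa7 differed by 0.36 ± 0.08 (adjusted p = 0.005), Ndufa6 by 0.35 ± 0.10 (0.0244) and Ndufc1, a small membrane arm subunit, by 0.27 ± 0.09 (0.0481). Ndufb2, Ndufa5, Ndufa2, Ndufb8, Ndufb5, Ndufa4 and Ndufb6 also passed, with differences of 0.30 to 0.35. Ndufa4l2 (0.59 ± 0.27), Ndufa11 (0.49 ± 0.17) and Ndufa10 (0.36 ± 0.15) had large differences that did not pass. On the probe used for each gene, Ndufb4 and Ndufv3 had the smallest differences, 0.05 each, followed by Ndufs5 with 0.11 ± 0.09. The second Ndufv3 probe gave 0.62 ± 0.17 in this contrast (limma adjusted p over probes = 0.0173). The number of calls fell to 0 under scaling by the median, and to 4 without silenced day 7 replicate 3, 7 without control day 7 replicate 1, and 6 without control day 14 replicate 1 or without silenced day 14 replicate 1 or 3. Ndufa2, Ndufa5, Ndufa7 and Ndufb2 passed in all 15 such fits, while Ndufb6 was lost in 12 and Ndufc1 in 11.

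The fibres of a muscle differ in myosin, and the balance of the fast isoforms Myh4, typical of glycolytic fibres, and Myh1, typical of fibres with more mitochondria, lay apart in the 2 groups of day 14. Myh4 minus Myh1 averaged -1.10 ± 4.54 in silenced fibres and 5.14 ± 2.65 in controls at day 14 (n = 4 each), and 3.03 ± 2.83 (n = 3) in silenced fibres and 3.72 ± 1.90 (n = 4) in controls at day 7. The silenced fibres of day 14 whose member medians were 6.17 and 6.08 had Myh4 minus Myh1 of -1.99 and -7.15. The other silenced fibres of day 14, with medians of 5.78 and 5.73, had 2.77 and 1.98. At day 7 silenced replicate 3 had the highest median of its group, 6.26, and the lowest balance of that day, -0.05. The other silenced fibres of day 7, with medians of 6.09 and 5.98, had 3.65 and 5.50. Among controls of day 7, replicate 3 had the lowest balance, 1.35, and the lowest median, 5.59. With this balance as a covariate the day 7 contrast gave 16 calls and a median of 0.43. The contrast over both days then gave 1 call and a median of 0.14, and the day 14 median became -0.13. The summed level of the leukocyte list was also higher in silenced fibres of day 7. The fast fibre list, with 0 calls, had 8 of 9 tested markers above 0 and a median of 0.30 at day 7, and 1 of 9 above 0 and a median of -0.33 at day 14. Its summed level at day 7 was 2960 to 4420 in silenced fibres and 2550 to 3160 in controls. Of 7 slow fibre markers 1, the myosin light chain Myl2, passed at day 7, lower in silenced fibres (-1.44 ± 0.29, limma adjusted p = 0.00233). Of these 7 slow markers, 3 were above 0 and 4 below at day 7, with a median of -0.01. Control day 7 replicate 3 stood apart in the slow troponins, with Tnnt1 at 4.92 and Tnni1 at 3.41, where the other 3 controls of that day were below 0. Silenced fibres of day 7 lay above those 3 controls in both genes, with Tnnt1 at 1.98, 1.48 and 2.06 and Tnni1 at -0.50, 0.06 and 0.35. The summed level of the slow list at day 7 was 9.60 to 10.5 in silenced fibres and 6.26 to 48.7 in controls. All 7 leukocyte markers were detected on at least 1 array of either group at day 7, with a summed level of 291 to 336 in silenced fibres and 237 to 276 in controls. Itgam made up most of it (7.70 to 8.35 across all 30 arrays), Ptprc lay between -1.06 and -0.29, and of 6 tested markers Cd68 fell and Itgam rose. At day 14 the summed level was 255 to 331 in silenced fibres and 274 to 307 in controls. The part of these markers in the result was not tested.

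**Figure D4:**
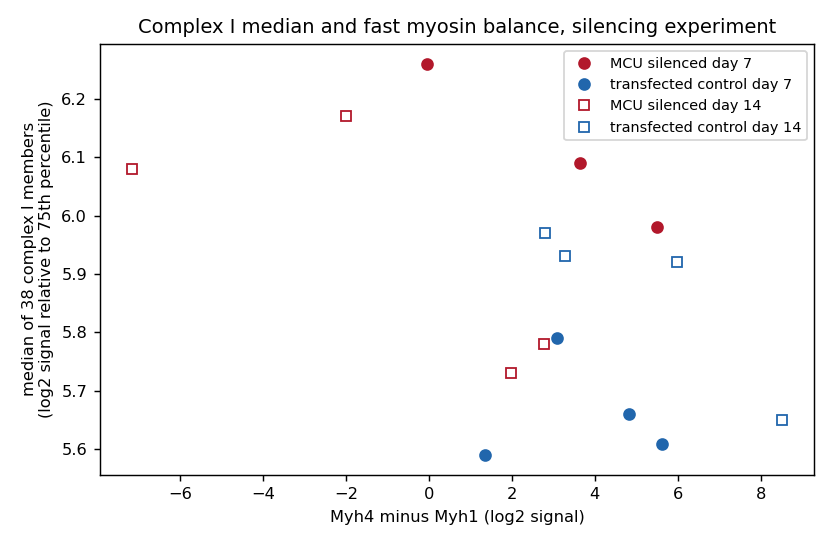
Median of the 38 members in each fibre of the silencing experiment against the log2 signal of Myh4 minus that of Myh1 (circles day 7, open squares day 14). The silenced fibres of day 14 at -1.99 and -7.15 lie at medians of 6.17 and 6.08, and the silenced fibres of day 7 lie above the controls of that day.

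The MCU vector gave no call. Its wild type controls had no virus, so virus and MCU cannot be told apart here. Mcu itself did not pass at day 7 (0.60 ± 0.41, limma adjusted p = 0.999). In the contrast of the MCU vector against wild type over both days, 0 of 38 members passed by limma, where 0.291% of all genes fell and 0.835% rose. At a limma p under 0.05 without adjustment 9 members were lower and 0 higher, where 1652 of 23341 genes were lower and 1406 higher. Over the 38 members the median difference was -0.20, against -0.02 over all genes, and 37 of 38 members were below 0; 34 were under scaling by the median. Ndufs4 had the smallest p, with -0.38 ± 0.11 (limma adjusted p = 0.106), followed by Ndufa4 with -0.34 ± 0.10 (0.122). Ndufs8 differed by -0.36 ± 0.18 and Ndufa11, a membrane arm subunit beside the core of that arm, by -0.32 ± 0.17. Ndufa4l2 had the lowest difference and a wide error (-0.39 ± 0.27). At the upper end Ndufa13 had 0.01, Ndufb7 -0.01, Ndufc1 -0.03, Ndufa2 -0.04 and Ndufa7 -0.05. At day 7 the median was -0.15, 0 members passed (0.0343% of all genes fell) and no member's groups lay apart (4.08% of all genes did on the higher side and 4.01% on the lower). That median was -0.28 without MCU vector replicate 3, -0.04 without MCU vector replicate 1 and -0.06 without wild type replicate 1 or 4. At day 14 it was -0.24, and 0 members passed (0.0985% of all genes fell). There, 9 members had MCU vector fibres all below wild type fibres, where 4.36% of all genes did so and 3.92% lay apart on the higher side. Ndufa4, Ndufs4, Ndufs8 and Ndufv3 were among them. Ndufs4 was 3.72, 3.64, 3.96 and 3.97 with the MCU vector, against 4.18, 4.33, 4.52 and 4.29 in wild type fibres. Its difference of -0.51 ± 0.15 had a limma adjusted p of 0.159. The change between days, as day 14 minus day 7, had a median of -0.09 and 0 calls, where 0.184% of all genes were lower and 0.0171% higher. That median was 0.01 without MCU vector day 7 replicate 3 and -0.20 without replicate 1. With array quality weights 4 members passed over both days, all lower.

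The effects of raising and of silencing MCU share no fibres, and their difference was tested. The MCU vector was set against fibres without virus, and silencing against fibres with a control virus. Any effect of carrying a virus thus stays in this difference and cannot be told apart from that of MCU. As MCU vector effect minus silencing effect over both days, 38 of 38 members were below 0, with a median of -0.46, against -0.07 over all genes. By limma 14 members passed, all below 0, where 5.86% of all genes did so and 5.34% passed above 0. Ndufa4 had the smallest p (-0.68 ± 0.15, limma adjusted p = 0.00491). Ndufs8 differed by -0.98 ± 0.25 (0.013), Ndufb3 by -0.57 ± 0.15 (0.0163) and Ndufs4 by -0.55 ± 0.16 (0.0274). The count was 2 under scaling by the median, 28 when the percentile came from probes seen on every array, and 7 with the myosin covariate. It was 5 without MCU vector day 7 replicate 1, 9 without replicate 2, 24 without replicate 3 and 8 without silenced day 7 replicate 3.

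Other parts of the respiratory chain were set beside the members. Of 42 genes of complexes II to V, 18 rose in silenced fibres at day 7 and 0 fell, with a median of 0.47; the largest differences among the calls were in Cox7b (0.83), Uqcrfs1 (0.70) and Cox6c (0.68). At day 14, 0 of these 42 passed and the median was 0.04. With the MCU vector over both days 0 of 42 passed, with a median of -0.20 and 42 of 42 below 0. Whether these values differ from those of the members was not tested. Of 20 measured assembly factors, which help to build the complex and leave it, 1 rose at day 7 (Ndufaf2, 0.50 ± 0.17, limma adjusted p = 0.049) and the median was 0.22. At day 14 Ndufaf2 and Ndufaf6 fell in silenced fibres, by 0.67 and 0.62 on the log2 scale (limma adjusted p = 0.0151 and 0.0339). Of 5 measured subunits encoded in the mitochondrial genome, ND3 rose at day 7 (0.67 ± 0.22, limma adjusted p = 0.0402), and all 5 were above 0 at day 7 and below 0 at day 14. Ndufb1, which is on the array under another name and so is no member, differed by 0.28 ± 0.30 at day 7.

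Of 11 regulators of mitochondrial genes, 1 passed in the silencing contrast, where 8.28% of all genes rose and 5.17% fell at day 7. Ppargc1a, which encodes the coactivator PGC-1alpha, was 3.07, 1.69 and 3.35 in silenced fibres of day 7, against 3.42, 3.70, 4.72 and 4.14 in controls. All silenced fibres were lower while the members were higher in the same fibres (-1.29 ± 0.35, limma adjusted p = 0.0165). Over both days Ppargc1a differed by -0.94 ± 0.24 (limma adjusted p = 0.0106). Tfam, a factor of mitochondrial DNA, differed by 0.55 ± 0.20, and Esrra, a nuclear receptor of mitochondrial genes, by 0.36 ± 0.19, and neither passed (limma adjusted p = 0.065 and 0.199). Ppargc1a was 2.71, 2.43, 2.18 and 2.74 in wild type fibres of day 7, which lay on another slide. These values lay within the range of the silenced fibres of that day and below its transfected controls. In wild type fibres Ppargc1a was higher at day 14 than at day 7 by 1.53 ± 0.33 (limma adjusted p = 0.0128). In that contrast 0 members passed, with a median of 0.16 and 37 of 38 above 0, where 1.28% of all genes rose and 1.13% fell. That median was 0.07 without wild type day 7 replicate 2. Day and slide cannot be told apart in this contrast.

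Promoter sequence was compared because the members moved together at day 7. RefSeq promoters of build GRCm38.p6 were matched by symbol for 33 of the 38 members, and the 250 bases before each start were searched on both strands for 4 motifs. GCGCNTGCG, the core of the motif of nuclear respiratory factor 1, was present for 8 of the 33 genes, 24.2% (Ndufa11, Ndufa12, Ndufa5, Ndufa8, Ndufb10, Ndufb4, Ndufs5 and Ndufs6), and in 5.19% of 32851 promoters. Members are counted as genes and the whole set as single promoters. A gene with more than 1 promoter, such as Ndufa5 or Ndufa7, thus had more chances of a match. CCGGAAGT (ETS factors) was in 2.88% of all promoters, AAGATGGCG (YY1) in 0.606% and TCAAGGTCA (oestrogen-related receptors) in 0.387%, and none of these in a member. In the 300 bases that run past the start, AAGATGGCG was found for 5 genes (Ndufa9, Ndufc1, Ndufs4, Ndufs6 and Ndufs7). These were 15.2% of those matched, and the motif was in 1.4% of all promoters. In that window GCGCNTGCG was found for 9 genes, 27.3%, and in 6.31% of all promoters. CCGGAAGT was found for 1 gene (Ndufs3), 3.03%, and in 3.89% of all promoters. TCAAGGTCA was found for 0 genes and in 0.423% of all promoters. Among the matched genes that rose at day 7, only Ndufa5 and Ndufa12 hold the first motif. The other holders, Ndufa11, Ndufa8, Ndufb10, Ndufb4, Ndufs5 and Ndufs6, did not pass at day 7. Whether the motif goes with the rise was not tested. The promoters printed are those of Ndufa7 and Ndufb2, the members with the smallest p, of Ndufa5, and of Ndufs5, which had the smallest difference, in lower case with a match to GCGCNTGCG on either strand in capitals. A match is a match of letters and no measured site.
Ndufa7, chr17:33824322-33824571, plus strand: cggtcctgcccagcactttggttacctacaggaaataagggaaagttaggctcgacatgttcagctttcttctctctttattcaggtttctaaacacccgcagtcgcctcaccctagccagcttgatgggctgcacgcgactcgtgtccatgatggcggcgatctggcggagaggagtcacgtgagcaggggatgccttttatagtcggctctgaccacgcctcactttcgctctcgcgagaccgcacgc
Ndufb2, chr6:39592315-39592564, plus strand: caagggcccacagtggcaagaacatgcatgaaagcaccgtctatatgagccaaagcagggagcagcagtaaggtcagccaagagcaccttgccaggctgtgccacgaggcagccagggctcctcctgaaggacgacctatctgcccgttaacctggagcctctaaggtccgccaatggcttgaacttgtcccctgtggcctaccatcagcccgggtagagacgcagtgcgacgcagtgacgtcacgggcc
Ndufa5, chr6:24527691-24527940, minus strand: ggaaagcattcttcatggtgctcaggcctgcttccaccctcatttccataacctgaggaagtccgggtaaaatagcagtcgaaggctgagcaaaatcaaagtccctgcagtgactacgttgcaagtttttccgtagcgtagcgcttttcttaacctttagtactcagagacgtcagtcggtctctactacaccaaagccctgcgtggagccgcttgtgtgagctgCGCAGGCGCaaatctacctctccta
Ndufs5, chr4:123718187-123718436, minus strand: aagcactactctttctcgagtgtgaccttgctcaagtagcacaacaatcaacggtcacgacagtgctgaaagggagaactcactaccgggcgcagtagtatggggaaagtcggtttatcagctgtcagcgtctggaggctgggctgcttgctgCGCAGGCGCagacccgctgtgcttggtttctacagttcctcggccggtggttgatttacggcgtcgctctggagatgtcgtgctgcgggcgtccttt

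Of the members, 9 had more than 1 probe, and in 8 of these all probes had the same sign at day 7 of silencing. The exception was Ndufa3. Among genes called at day 7, the second probes of Ndufb2 (0.71 ± 0.13, limma adjusted p over probes = 0.00109) and Ndufa5 (0.45 ± 0.14, 0.0359) also passed. Those of Ndufb5 (0.44 ± 0.22, 0.199), Ndufb6 (0.41 ± 0.16, 0.0892) and Ndufv3 (0.33 ± 0.25, 0.399) did not. For the day difference the second Ndufb5 probe gave -0.46 ± 0.31 (0.44). The probes of Ndufv3, which encodes a flavoprotein-associated subunit, disagreed at day 14. This pair was chosen after its values were seen. The second probe, whose sequence is given with the probes, was 0.27, -0.45, 0.99 and -0.47 in silenced fibres of day 14, against -1.02, -0.67, -0.97 and -0.63 in controls. All silenced fibres were higher, by 0.91 ± 0.23 (limma adjusted p over 33163 probes = 0.0258). The used probe gave -0.34 ± 0.12 in the same fibres (0.103). The 2 highest values of the second probe were in the silenced fibres with Myh4 minus Myh1 of -1.99 and -7.15. RefSeq lists more than 1 transcript of Ndufv3, and the transcripts that each probe reads were not tested.

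**Figure D5:**
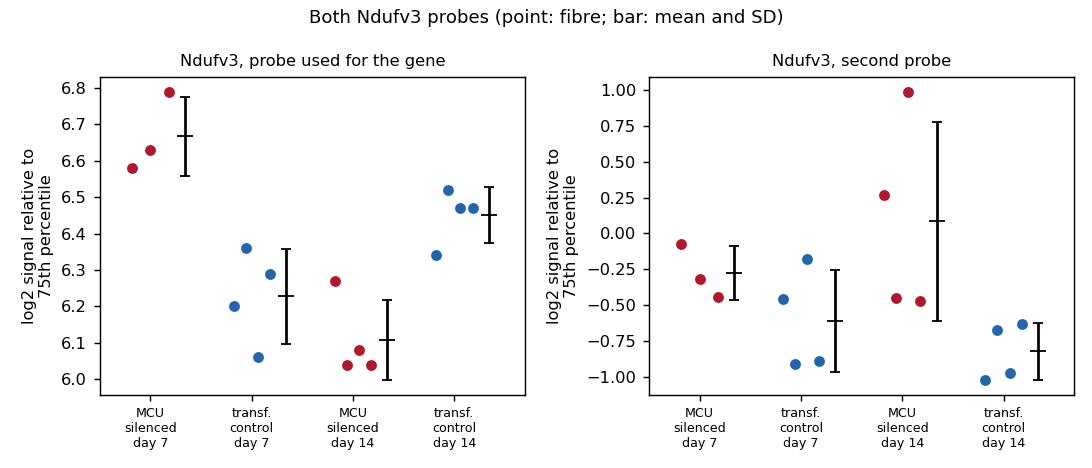
Log2 signal of both Ndufv3 probes, above the 75th percentile of the array, in silenced and control fibres (points are fibres, bars mean and SD). At day 14 silenced fibres lie below controls on the used probe (6.04 to 6.27 against 6.34 to 6.52) and above them on the second probe.

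Transfected controls were compared with wild type fibres to see what the control virus goes with; these groups lay on different slides and scan days, so virus and slide cannot be told apart. Over both days 2 members were higher in transfected controls, where 10.3% of all genes were higher and 17.5% lower, and the median over members was 0.02. Ndufs5, a membrane arm subunit on the side of the intermembrane space, was 3.78, 4.19, 4.15 and 4.13 in controls and 3.58, 3.45, 3.46 and 3.61 in wild type fibres at day 7. At day 14 it was 3.88, 4.34, 4.15 and 4.11 in controls, against 3.35, 3.75, 3.68 and 3.59 in wild type fibres. Controls were above wild type fibres on both days (0.53 ± 0.08, limma adjusted p = 4.2e-05), and the call held in every alternative fit run. Ndufs4 differed by 0.30 ± 0.11 (limma adjusted p = 0.0425), a call lost in 11 of the 16 fits that left out 1 fibre. With scaling by the median, which moved the median of all genes to 0.12, against -0.04 before, 7 members passed and the median over the 38 members was 0.18, while it was below 0 under the other scalings and normexp.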

How the data were processed

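Arrays were 1-colour Agilent scans, 1 per fibre, read with Feature Extraction 10.7.3.1 per the file headers. RNA was amplified with 18 cycles and labelled with random primers, per the labels' protocols, so reads of an antisense transcript cannot be told apart. The deposited intensity was the processed signal, background-corrected by the authors' scanner software per the file headers. The authors' deposited series matrix values were processed intensities on a linear scale and were put on a log2 scale here. On that log2 scale each column fitted its own array with r of at least 0.998. Column medians on the linear scale were 22.5 to 23.2, and the centring of the columns is not given in the sources used here.

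From these, log2 signal minus the array's 75th percentile was computed over non-control probes, leaving out outlier spots. Kept were probes that stood well above background in 3 or more fibres of any group (33163 of 55681), and a gene was its kept probe with the highest mean. Names were updated through RefSeq (26425 probes by accession, 3988 by symbol, 826 by synonym, 24442 kept as in the files). limma 3.58.1 in R 4.3.3 fitted 8 group means to all 30 arrays with 22 residual degrees of freedom, with 2-sided tests and Benjamini-Hochberg adjustment over 23341 genes at 0.05. The fit was tested on simulated data. Of the used probes, 7 list another predicted or non-coding record as well.

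Members and lists were chosen with earlier results of these data known. Members named are those past the threshold in a comparison (the 12 with the smallest p where more pass, of which a few are given), the 5 highest and lowest differences over both days, and those without overlap on both days. A clause of that rule on levels between members was not used, since levels of different probes are not comparable. Replicate numbers did not pair fibres: correlations of same-numbered deviations were -0.175 to 0.186, 4 of 14 above 0.1. Alternatives were other scalings, background correction, filters, probe rules, weights, covariates, blocks and leaving out each fibre. One result is not reported here by name, though counts and medians over the members include it.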

Additional observations from a re-analysis of the deposited data

Results flagged for a closer look

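In groups of 4, the gap of the farthest fibre was compared with the group's range, which chance passes in about 1 set of 20; 5 of 156 sets passed. The transfected control fibre of day 14, replicate 1, lay below the others in 3 of them. Its member median was 5.65, against 5.92 to 5.97 in the other controls, its Ndufb5 was 5.44, against 5.75 to 5.81, and its Ndufs7 was 6.79, against 7.26 to 7.31. Without this fibre 6 members passed for silencing over both days, and the day 14 median was 0.00. Ndufb7 was 6.70 in wild type day 7 replicate 2, against 6.90 to 6.92 in the others. Ndufs5 was 3.78 in transfected control day 7 replicate 1, against 4.13 to 4.19 in the others.

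The effect of silencing differed between days, by the limma test of day 14 minus day 7, for Ndufv3 (-0.78), Ndufb5 (-0.66), Ndufa7 (-0.64) and Ndufb2 (-0.55).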

How the results depend on the processing

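Main counts of members called were 11 for silencing over both days, 14 at day 7, 0 at day 14, 4 for the day difference, 14 for the difference of both effects, 2 for control against wild type, 1 for control days and 0 for the MCU vector. Scaling by the median gave 0, 3, 1 (lower), 1, 2, 7, 0 and 0, with a day 7 median of 0.32. The percentile over probes detected on all arrays gave 23 for both days, 22 at day 7 and 28 for the difference of effects. Quantile normalization and the series matrix values each gave 9 at day 7 and 1 for the day difference, whose median was -0.23; the day 7 median was 0.33 with series matrix values and with normexp. Normexp gave 1 for the MCU vector over both days, 3 for control days and 2 for wild type days. Without the filter the day difference gave 2, control against wild type 1 and control days 0, and the mean of a gene's probes gave 2 for the day difference. With only the groups compared the counts were 6, 0 (day 7), 1 (day difference), 1 (control against wild type) and 0 (control days). Array weights gave 5, 8 (day 7), 1 (day difference), 4 (MCU vector, both days) and 1 (wild type days). The replicate block gave 6 for both days, 0 for the day difference and 3 for the difference of effects; it could be fitted within slides only. The myosin covariate gave 1 for silencing over both days, 7 for the difference of effects, 1 and 2 for the MCU vector over both days and at day 14, and 2 for control days, with medians of -0.13 at day 14 and -0.60 for the day difference. The share of detected probes as covariate gave 2 for the day difference and 1 for control against wild type. Slide as a random block gave 5, 8 (difference of effects) and 1 (control against wild type). Leaving out 1 fibre gave 4 to 13 for silencing over both days (medians 0.23 to 0.31), 8 to 16 at day 7 (0.40 to 0.52), 0 at day 14 (0.00 to 0.14), 1 to 4 for the day difference (-0.49 to -0.35), 5 to 24 for the difference of effects (-0.52 to -0.41), 1 to 2 for control against wild type (-0.01 to 0.05), 0 to 1 for control days (0.19 to 0.30) and 0 for wild type days (0.07 to 0.23). For the MCU vector it gave 0 throughout, with medians of -0.26 to -0.15 over both days, -0.28 to -0.04 at day 7, -0.31 to -0.17 at day 14 and -0.20 to 0.01 for the day difference. No difference that had passed changed sign. Medians without calls did: silencing at day 14 (0.07) was -0.05 under median scaling and -0.13 with the myosin covariate. Control against wild type (0.02) was -0.06 to -0.01 under the other scalings and normexp, and the MCU vector day difference (-0.09) was 0.01 without MCU vector day 7 replicate 3. Beyond these constructions the cause was not tested.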
